A study of Mus musculus with 12 samples.

Results

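Meningeal libraries of mice that had gone through restraint stress and then received MDMA were compared with those of unstressed mice, gene by gene. All 12 mouse libraries of the study are labelled as monocytes from the meninges of male C57BL/6J mice, and the 6 used here are 3 from each of these groups. The stressed mice had 18 days of chronic restraint and then a dose of MDMA, with tissue taken 24 hours later. The unstressed mice are unstressed controls by their titles alone. Their samples carry the same treatment text as the stressed ones, which speaks of restraint and names no unstressed group, and no injection or vehicle is given for them. The titles were taken as the group, and stress, drug, injection and handling cannot be told apart. Nor can they be told from the separate counting of the 2 groups, described below, which goes with group for every gene. The sources used here give no dose, age or statement that libraries came from separate animals. The p-values therefore reflect the variation among these libraries, which may in part be technical. A bead-based kit was used to isolate the monocytes, and 5 ng of RNA went into each library. The remaining groups, 3 libraries each of stressed mice given vehicle or psilocybin, serve as context for named genes.

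MDMA, an amphetamine, acts on monoamine transporters and makes nerve endings release serotonin. Monocytes are blood-borne phagocytes made in the bone marrow, and the meninges also receive myeloid cells, neutrophils among them, from the marrow of the adjoining skull. Neutrophils load their granules with antimicrobial proteins during maturation in the marrow, and the transcripts of those proteins mark neutrophil precursors more than circulating cells. The meninges further hold fibroblasts, vessels, border macrophages and, where a dissection reaches them, choroid plexus and pineal gland.

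The 2 groups had been counted against different gene annotations. The MDMA files carry Ensembl identifiers and the unstressed files RefSeq symbols, so each gene was matched across them by its symbol at the same locus, or by position where symbols differed. Of 27578 joined genes, 11389 had a mean of at least 5 CPM (counts scaled to a common total of joined-gene counts) in each of the 2 groups and were tested. Another 16189 were left out, 14600 of them under that level in both groups, 931 in the unstressed group only and 658 in the MDMA group only. Just inside the level stood Tlr8 (5.02 CPM with MDMA and 10.1 CPM unstressed) and just outside it Zbtb49 (7.29 CPM and 5.00 CPM). Each gene was classed by its exons as nearly the same in both annotations, similar or differing. The annotation release of the stressed files is not given, so GENCODE vM21 stood in for it and the classes are approximate. Exon lengths given below for Ensembl or the MDMA group's annotation are likewise those of GENCODE vM21. Total gene counts ran from 2859534 to 5136953 in the MDMA libraries and from 2949163 to 4504400 in the unstressed ones, and joined genes held 94.8% to 99.1% of them. The correlation of log2 CPM across genes between libraries of a group was 0.731 to 0.907 for MDMA and 0.765 to 0.82 for unstressed.

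Markers of monocytes were present, beside far larger amounts of other cells' RNA. Ccr2, the chemokine receptor of classical monocytes, stood at 55.6, 60.9 and 124.5 CPM in MDMA libraries 1, 2 and 3 and at 80.1, 54.2 and 61.8 CPM in unstressed libraries 1, 2 and 3. Ly6c2, the surface marker of the same cells, stood at 36.9, 19.6 and 51.7 CPM against 4.79, 7.56 and 0.672 CPM. By contrast Enpp2, which encodes autotaxin and is abundant in choroid plexus epithelium, stood at 20810, 17660 and 16440 CPM against 31840, 10220 and 30320 CPM. The 14 choroid plexus markers together took 46580, 33290 and 23840 CPM with MDMA and 41460, 15990 and 39630 CPM without stress, far more than the 10 classical monocyte markers, whose sums were 1396, 966.9 and 1874 CPM against 696.6, 785.5 and 690.7 CPM. In such mixed RNA, a change in the number of cells of a type and a change in RNA per cell cannot be told apart.

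In all, 55 of 11389 genes (0.483%) passed an adjusted p of 0.05 in the edgeR quasi-likelihood fit (Benjamini-Hochberg), 15 higher (0.132%) and 40 lower (0.351%) with MDMA. The log2 differences of the higher genes ran from 2.01 to 5.14 and those of the lower genes from -5.57 to -1.78. The median over all tested genes was 0.03, and 51.3% of genes had a positive difference. At an unadjusted p under 0.05 there were 1400 genes (12.3%), 5.86% higher and 6.44% lower. In 2435 genes (21.4%) the 3 values of one group did not overlap the 3 of the other, with MDMA above in 11.9% and below in 9.5%. Of the 55, 7 belonged to the 1901 tested genes whose exons were nearly the same (0.368%), 2 higher (0.105%) and 5 lower (0.263%). A further 5 of 1782 genes with similar exons passed (0.281%), 1 higher (0.0561%) and 4 lower (0.224%). Of 7706 genes with differing exons 43 passed (0.558%), 12 higher (0.156%) and 31 lower (0.402%). The count rested on single libraries: it fell to 4 without unstressed library 1 or without unstressed library 3, was 26 without MDMA library 1 and 16 without MDMA library 3, and was 114 without unstressed library 2.

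**Figure D1:**
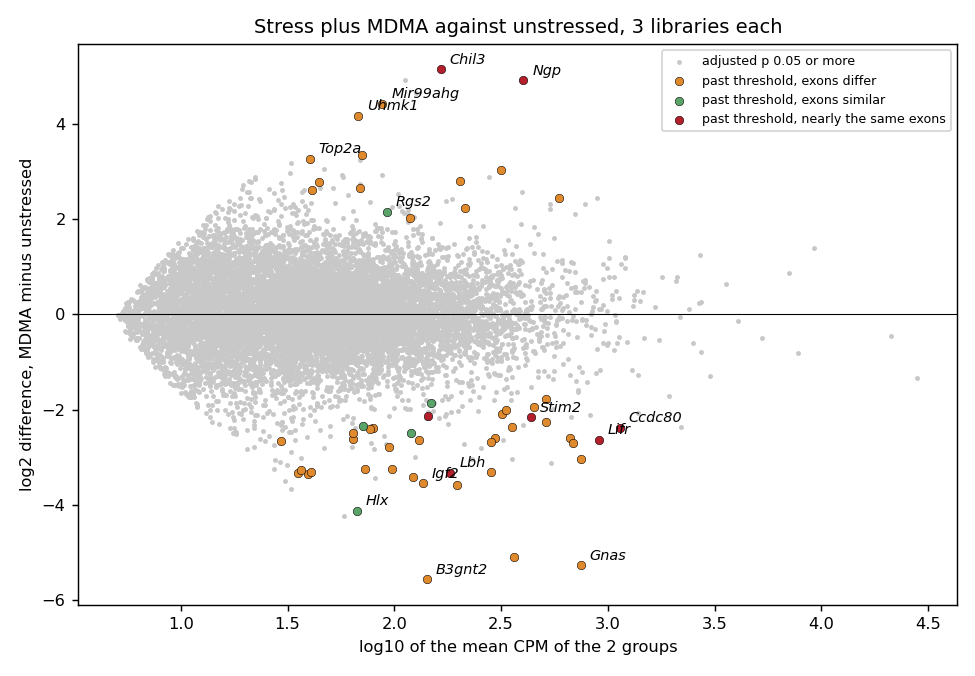
Log2 difference (MDMA minus unstressed, vertical) against log10 of the mean CPM of the 2 groups (horizontal) for the 11389 tested genes, 1 point a gene. Coloured points are the 55 past the threshold, by exon class; Ngp and Chil3 stand at the top at 4.92 and 5.14, and Gnas and B3gnt2, with differing exons, at the bottom at -5.26 and -5.57.

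Of the genes with nearly the same exons, the 2 that rose with MDMA both belong to the neutrophil marker list. Which cells of the mixed RNA held their transcripts was not tested. Ngp, neutrophilic granule protein of the secondary granules (chromosome 9, 110419747-110423012 of GRCm38, forward strand), stood at 1049, 313.9 and 970.7 CPM in the MDMA libraries and at 34.2, 25.5 and 12.99 CPM in the unstressed ones. Chil3, the chitinase-like lectin also called Ym1 (chromosome 3, 106147554-106167564, reverse strand), stood at 357, 93.7 and 512.9 CPM against 8.90, 11.3 and 5.15 CPM. Every MDMA library lay above every unstressed library for both genes, and MDMA library 2 was the lowest of its group for both. The log2 differences were 4.92 ± 0.55 (SE, adjusted p = 0.0119) for Ngp and 5.14 ± 0.62 (adjusted p = 0.0153) for Chil3, by the edgeR test with n = 3 a group. Chil3 has a close copy, Chil4, and how the authors treated reads that fit both is not given; Chil4 itself had 3, 1 and 6 counts with MDMA and 0 in each unstressed library. Without unstressed library 1 the adjusted p was 0.0672 for Ngp and 0.0924 for Chil3, and without unstressed library 3 it was 0.0829 and 0.13, with log2 differences of 4.63 to 5.26 in those fits.

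The 250 bases before the RefSeq start of both genes, and of S100a9, are shown because these members of the neutrophil list were high together. The window of Lbh, a gene lower with MDMA, is shown beside them. Sequences are from RefSeq on GRCm38.p6, read 5′ to 3′ on the gene's strand. Capitals mark matches to TTGCNNAA or its reverse complement TTNNGCAA, letters bound by C/EBP factors, or to the PU.1 letters GAGGAAGT and ACTTCCTC, searched on both strands.
Ngp: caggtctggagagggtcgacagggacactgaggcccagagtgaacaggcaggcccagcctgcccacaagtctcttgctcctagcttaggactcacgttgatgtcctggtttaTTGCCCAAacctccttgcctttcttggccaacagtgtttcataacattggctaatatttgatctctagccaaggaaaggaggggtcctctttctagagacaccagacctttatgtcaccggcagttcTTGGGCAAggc
Chil3: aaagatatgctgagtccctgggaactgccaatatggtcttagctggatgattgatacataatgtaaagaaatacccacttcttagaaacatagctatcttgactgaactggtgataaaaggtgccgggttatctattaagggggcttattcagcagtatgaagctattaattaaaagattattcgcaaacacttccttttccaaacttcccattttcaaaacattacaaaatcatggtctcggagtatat
S100a9: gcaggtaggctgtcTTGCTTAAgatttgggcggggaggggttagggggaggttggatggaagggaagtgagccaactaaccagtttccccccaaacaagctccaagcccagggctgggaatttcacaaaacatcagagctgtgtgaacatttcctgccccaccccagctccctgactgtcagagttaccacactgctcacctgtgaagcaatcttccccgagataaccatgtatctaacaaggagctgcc
Lbh: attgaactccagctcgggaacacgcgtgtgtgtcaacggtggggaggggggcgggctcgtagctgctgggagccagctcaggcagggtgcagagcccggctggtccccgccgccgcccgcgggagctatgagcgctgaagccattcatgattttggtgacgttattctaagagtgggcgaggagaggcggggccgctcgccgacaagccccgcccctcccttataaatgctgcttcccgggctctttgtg
The windows lie at chr9:110419558-110419807 (Ngp, forward), chr3:106167565-106167814 (Chil3, reverse), chr3:90695722-90695971 (S100a9, reverse) and chr17:72918055-72918304 (Lbh, forward). Ngp held 2 C/EBP matches, beginning 138 and 11 bases before the RefSeq start, S100a9 held 1 at 236 bases, and Chil3 and Lbh held none. The Ngp window runs past the GENCODE start of the gene at 110419747. Its match at 11 bases therefore lies inside the gene by that annotation. None of the 4 held the PU.1 letters. Windows of other named genes were searched and are not printed. S100a8 held the PU.1 letters at 172 bases and no C/EBP match, and Ltf held 1 C/EBP match at 75 bases. Those of Camp, Lifr and Stim2 held neither. Among 32851 RefSeq windows of the same length, 3142 (9.56%) held the C/EBP letters and 802 (2.44%) the PU.1 letters, so a match is a description of these windows only.

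Most neutrophil markers were too low in the unstressed libraries to be tested: 15 of 18 fell under 5 CPM in at least one group. S100a9, a subunit of the calcium-binding protein calprotectin with nearly the same exons in both annotations, had 903, 101 and 357 counts in the MDMA libraries (260, 37.3 and 71.2 CPM) and 1, 3 and 5 counts in the unstressed ones (0.342, 0.756 and 1.12 CPM). Its partner S100a8, whose exons differ (694 own bases in Ensembl and 392 in RefSeq), had 1774, 137 and 598 counts against 5, 8 and 7. In both, MDMA library 1 was the highest and MDMA library 2 the lowest of the group, and no unstressed library came near any MDMA library.

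Granule genes left out of the test had the same order of groups. Ltf, the iron-binding lactotransferrin, stood at 295, 87.1 and 446 CPM with MDMA and 0, 4.54 and 5.15 CPM without stress, and Camp, the cathelicidin, at 369, 66.8 and 92.2 CPM against 2.05, 3.78 and 1.57 CPM. Lcn2, which binds bacterial siderophores, stood at 37.4, 14.8 and 23.8 CPM against 0, 1.51 and 0.896 CPM. The exons of these 3 genes differ between the annotations. Such genes would reach a test mainly through the MDMA group, where they are high, so their number is not given as support.

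Several genes of mature circulating neutrophils were low in both groups and overlapped. Cxcr2, a chemokine receptor of mature neutrophils, had 1.44, 0 and 0.599 CPM with MDMA and 2.396, 0.504 and 0.224 CPM without stress, and Ly6g, their usual surface marker, 0.576, 0 and 0.599 CPM against 0, 0.756 and 0 CPM. At these counts a difference was not detectable. Others had more counts with MDMA: summed over the 3 libraries, the ratio to unstressed was 10.3 (4.74 to 26.5, counting interval only) for Il1r2, a decoy receptor, and 2.66 (1.9 to 3.76) for Csf3r, the receptor of the neutrophil growth factor. Retnlg, a resistin-like protein, had a ratio of 5.37 (2.71 to 11.9), and the proteases Mmp8 and Mmp9 had ratios of 7.36 (4.91 to 11.5) and 2.57 (1.66 to 4.06). In each of these 5 genes at least 1 MDMA library overlapped the unstressed range. Lrg1, the third member tested, had a log2 difference of 0.44 ± 0.40 (edgeR adjusted p = 0.678). The 18 markers together took 3082, 755.9 and 2449 CPM with MDMA and 94.1, 166.6 and 123.2 CPM without stress.

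Summed markers of marrow precursors and red cells were higher in each MDMA library than in each unstressed one, and no member passed at the 5 CPM level used here. Mpo, the myeloperoxidase of promyelocytes, stood at 142, 21.8 and 491 CPM with MDMA and 19.2, 0.756 and 0.672 CPM without stress, a log2 difference of 4.91 that did not pass (edgeR adjusted p = 0.196). Elane, neutrophil elastase, with nearly the same exons, stood at 64.2, 14.4 and 111 CPM against 6.50, 0 and 1.79 CPM. Ctsg, cathepsin G, had 133 counts over the 3 MDMA libraries and 0 over the 3 unstressed ones, at least 45.0-fold higher against a floor of 3 counts over the group; MDMA library 2 also had 0. The 7 granulocyte progenitor markers summed to 290.5, 45.4 and 699.9 CPM against 32.5, 2.27 and 2.46 CPM. The 10 joined erythroid markers, none of which reached the test, summed to 249.9, 22.9 and 159.9 CPM against 8.56, 11.3 and 3.81 CPM. Both sums were lowest, within the MDMA group, in library 2, the library with the lowest Ngp, Chil3, S100a8 and S100a9. The part of marrow or blood cells in these differences was not tested.

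The granule genes also varied among the other stressed libraries, which share the MDMA group's annotation. Ngp stood at 31.8, 71.6 and 396.7 CPM in the psilocybin libraries and at 92.3, 120.5 and 4.83 CPM in the vehicle libraries. S100a9 stood at 14.2, 15.8 and 93.9 CPM with psilocybin and at 9.63, 15.2 and 10.2 CPM with vehicle. For Ngp the MDMA libraries differed from psilocybin by 2.20 (edgeR adjusted p = 0.686) and from vehicle by 3.36 (adjusted p = 1) on the log2 scale. For Chil3 these differences were 2.15 (adjusted p = 0.686) and 2.12 (adjusted p = 1). Psilocybin library 3 overlapped the MDMA range for Ngp, Chil3 and S100a9, and vehicle library 2 did for Chil3. For Ngp and S100a9 every vehicle library lay under every MDMA library. These comparisons use the same MDMA libraries as the one with unstressed mice.

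**Figure D2:**
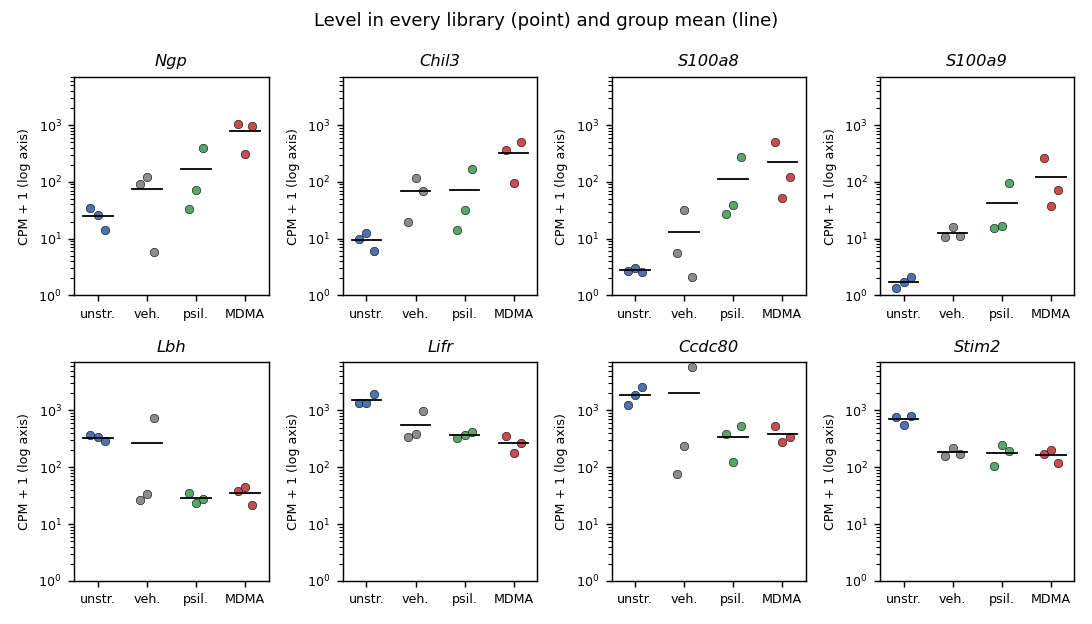
CPM plus 1 (log axis) of 8 genes in every library of 4 groups: unstressed, stress with vehicle, with psilocybin and with MDMA, each point a library and each line a group mean. For Ngp, Chil3, S100a8 and S100a9 all 3 MDMA libraries lie above the unstressed ones, and for Lbh, Lifr, Ccdc80 and Stim2 all 3 lie below.

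The lower genes with nearly the same exons included a transcription cofactor, a cytokine receptor, a matrix protein and a calcium sensor. Lbh, a transcriptional cofactor named for its expression in limb bud and heart (chromosome 17, 72918305-72941947), stood at 37.1, 43.2 and 21.0 CPM with MDMA and at 371.1, 339.4 and 283.2 CPM without stress. Its log2 difference was -3.32 ± 0.41 (edgeR adjusted p = 0.0155). Lifr, the receptor for leukemia inhibitory factor (chromosome 15, 7090614-7197489), stood at 350.4, 174.5 and 267.4 CPM against 1329, 1363 and 1959 CPM, a difference of -2.63 ± 0.36 (adjusted p = 0.024). For both genes the MDMA libraries lay well under the lowest unstressed library.

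Ccdc80, a secreted matrix-associated protein (chromosome 16, 45093402-45128077), stood at 524.6, 277.8 and 341.9 CPM with MDMA and 1239, 1901 and 2541 CPM without stress, a log2 difference of -2.39 ± 0.39 (edgeR adjusted p = 0.037). Stim2, the endoplasmic reticulum calcium sensor that opens store-operated channels (chromosome 5, 53998499-54121057), stood at 167.3, 200.7 and 117.9 CPM against 751.7, 564.7 and 810.8 CPM, a difference of -2.17 ± 0.36 (adjusted p = 0.0384). The predicted gene Gm20300 was the remaining lower one of this class, at 56.4, 65.7 and 39.9 CPM against 225.2, 225.3 and 246.7 CPM (-2.14 ± 0.36, adjusted p = 0.038); it was named after its values were seen. In all 5 lower genes each MDMA library lay under each unstressed one. When scaling and adjustment used only genes with nearly the same exons, Ngp, Chil3, Lbh and Lifr passed and Ccdc80 (adjusted p = 0.115) and Stim2 (adjusted p = 0.118) did not.

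Against the other stressed groups the lower genes showed no difference past the threshold. Lbh stood at 34.2, 22.9 and 26.4 CPM with psilocybin, and at 25.2, 33.0 and 743.5 CPM with vehicle, where library 3 lay above every unstressed library. Lifr stood at 327.2, 373.1 and 416.8 CPM with psilocybin and 337.8, 376.6 and 969.5 CPM with vehicle. Stim2 stood at 104.1, 241.5 and 190.4 CPM with psilocybin and 154.9, 219.4 and 169.1 CPM with vehicle, so all 9 stressed libraries lay below the 3 unstressed ones. Ccdc80 in vehicle library 3, at 5712 CPM, exceeded every other library. The log2 differences of MDMA from psilocybin were 0.30 for Lbh, -0.50 for Lifr, 0.15 for Ccdc80 and -0.10 for Stim2, with edgeR adjusted p from 0.695 to 0.958. The differences from vehicle were -3.45 for Lbh (unadjusted p = 0.0252), -1.42 for Lifr, -2.87 for Ccdc80 and -0.36 for Stim2, each with an adjusted p of 1 by edgeR.

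With similar rather than nearly the same exons, 4 genes fell and 1 rose; they were named after their values were seen. Hlx, a homeobox factor, stood at 13.2, 1.84 and 7.78 CPM with MDMA and 93.5, 138.9 and 146.1 CPM without stress (-4.12 ± 0.60, edgeR adjusted p = 0.0263). Trim8, a ubiquitin ligase of cytokine signalling, stood at 41.5, 35.4 and 34.3 CPM against 139, 254.5 and 214.4 CPM (-2.50 ± 0.36, adjusted p = 0.0263). Zfp263, a zinc finger factor, stood at 77.7, 56.8 and 63.1 CPM against 233.1, 224.8 and 233 CPM (-1.87 ± 0.31, adjusted p = 0.037). Ppp1r37, a regulatory subunit of protein phosphatase 1, was lower by a log2 difference of -2.35 ± 0.37 (adjusted p = 0.0359). Rgs2, a GTPase-activating protein that dampens G-protein signalling, stood at 169.9, 160.8 and 123.3 CPM against 35.3, 35.8 and 28.2 CPM (2.15 ± 0.35, adjusted p = 0.037). Its levels with psilocybin (111.7, 175.9 and 148.2 CPM) spanned those with MDMA. None of the 5 passed without unstressed library 1 or 3 or with all 12 libraries, nor without MDMA library 3 (edgeR adjusted p from 0.0659 to 0.128). When only genes with the same or similar exons were fitted, Hlx passed (adjusted p = 0.0486) and the other 4 did not (0.0519 to 0.0947).

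The 43 genes with differing exons held the largest falls. Counting and group cannot be told apart for any gene, and in this class the exons counted also differ. All 12 higher genes of this class had more bases of their own, not shared with another gene, in the Ensembl-type annotation, as had 77.3% of the 7706 tested genes of the class. Among the 31 lower genes 19 had fewer bases there, beside 22.7% of the class. The 3 largest rises were those of Mir99ahg, a microRNA host transcript (4.42), of Uhmk1, a kinase (4.17), and of the clone gene 4632427E13Rik (3.34), whose own bases were 14282, 7676 and 7303 in Ensembl and 3151, 2066 and 669 in RefSeq. The 3 largest falls were those of B3gnt2, a glycosyltransferase (-5.57), of Gnas, the stimulatory G-protein subunit (-5.26), and of Nufip2 (-5.09), with 1421, 8729 and 5792 own bases against 2818, 10722 and 12358. Gnas stood at 37.4, 36.5 and 44.1 CPM with MDMA and 1307, 1508 and 1538 CPM without stress. Its psilocybin and vehicle libraries, counted like the MDMA ones, stood at 4.29 to 74.8 CPM.

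In the other 12 lower genes with differing exons the MDMA group's annotation gave more own bases, though in Braf hardly more (13716 against 13634). Which of the exons held the reads was not tested. Tug1, a long noncoding RNA, stood at 281.6, 141.3 and 162.7 CPM with MDMA and 1074, 1130 and 1199 CPM without stress (-2.61 ± 0.35, edgeR adjusted p = 0.024), with 8603 own bases in Ensembl and 6781 in RefSeq. Ets1, a transcription factor of lymphocytes and endothelium, stood at 253.6, 248.6 and 209.6 CPM against 836.2, 761.3 and 776.1 CPM (-1.78 ± 0.30, adjusted p = 0.0378), with 8476 and 5393 own bases. Afap1, an actin filament binding protein, stood at 144.5, 128.7 and 138.5 CPM against 366.6, 586.9 and 641.6 CPM, with 12651 and 6886 own bases. The other 9 were Braf, Dvl3, Ip6k1, Ltbp1, Rhobtb2, Rpl13a, Tacc1, Tspan12 and 4933434E20Rik. These genes were named after their values were seen.

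Igf2 and Top2a were the only members of the marker and pathway lists outside the neutrophil list to pass, and both have differing exons. Igf2, a fetal growth factor kept on in meningeal fibroblasts and choroid plexus, stood at 20.4, 25.8 and 19.6 CPM with MDMA and 225.9, 282 and 240.2 CPM without stress (-3.55 ± 0.36, edgeR adjusted p = 0.00582). Its own bases were 2029 in Ensembl and 4890 in RefSeq, and with own length as an offset the difference was -2.28 (adjusted p = 0.0153). Its psilocybin libraries stood at 17.3, 17.0 and 20.1 CPM, and its vehicle libraries at 17.3, 10.2 and 1.07 CPM, all under the unstressed ones. Igf2 overlaps an antisense gene, Igf2os, at 1 to 7 counts in each of the 6 libraries. Top2a, the topoisomerase of dividing cells, stood at 56.7, 49.8 and 113 CPM against 5.48, 6.80 and 8.96 CPM (3.27 ± 0.49, adjusted p = 0.0274), with 8891 and 5233 own bases. With own length as an offset its difference was 2.50 (adjusted p = 0.0281). The Top2a call was lost without MDMA library 1 (adjusted p = 0.067) or 3 (0.116), without unstressed library 1 (0.149) or 3 (0.145), with limma voom (0.0586) and with all 12 libraries (0.851). Its psilocybin libraries stood at 7.87, 7.12 and 40.7 CPM and its vehicle libraries at 0, 0 and 0.537 CPM.

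The growth factor and fibroblast lists did not follow Igf2. Of 13 tested genes of the insulin-like growth factor list, Igf2 alone passed, and the median log2 difference was 0.11. Igf1 had 496, 734 and 291 CPM with MDMA against 358, 578 and 460 CPM, and Igfbp5 1466, 2513 and 2092 CPM against 2497, 2724 and 3768 CPM; neither passed. Of 13 tested meningeal fibroblast markers 9 had a positive difference, with a median of 0.61. Lum, the collagen-binding lumican, stood at 689, 926 and 937 CPM against 251, 346 and 224 CPM (1.59, edgeR adjusted p = 0.0772), and Dcn, decorin, at 1432, 1989 and 1615 CPM against 539.5, 941.2 and 699.2 CPM (1.17, adjusted p = 0.208). The groups did not overlap for either gene. Of the 13 tested members, MDMA lay wholly above in 4 and wholly below in 2, Igf2 among the latter. The shares over all tested genes were 11.9% and 9.5%. The 15 joined fibroblast markers together took 6128, 5705 and 5001 CPM against 2248, 3756 and 2738 CPM, again without overlap.

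No tested member of the monocyte and macrophage lists passed at the 5 CPM level. None of 9 tested classical monocyte markers passed, with a median difference of 0.86 and 8 of 9 positive. None of these 9 has nearly the same exons in both annotations. Under the filterByExpr filter of edgeR 1 of 10 tested passed as higher, as did 1 of 9 without unstressed library 2. Those 2 fits called 68 of 13453 and 63 of 10976 genes as higher. Lyz2, lysozyme of myeloid cells, stood at 679, 394 and 764 CPM with MDMA and 103, 211 and 61.6 CPM without stress (2.22, edgeR adjusted p = 0.0825), without overlap. For Ly6c2, left out by the filter, the values above did not overlap either, and a fit that admitted it gave 2.97 (edgeR adjusted p = 0.119). The exons of Ly6c2 differ, with 2740 own bases in Ensembl and 934 in RefSeq. Ccr2 had a difference of 0.22 ± 0.39 (edgeR adjusted p = 0.853). Its exons differ too, with 6760 and 3968 own bases, and with own length as an offset the difference was -0.55. Of 7 tested non-classical monocyte markers none passed and 2 were positive, with a median of -0.76. Nr4a1, the orphan nuclear receptor needed for those cells and an early response gene, stood at 659.3, 332.4 and 634.3 CPM against 796.9, 567.8 and 438.4 CPM (-0.23 ± 0.35, adjusted p = 0.821). Cx3cr1, their fractalkine receptor, stood at 57.3, 2.58 and 15.8 CPM against 0, 16.6 and 8.06 CPM (1.51 ± 1.26, adjusted p = 0.658), with a spread inside each group as wide as the groups themselves.

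Border macrophages and antigen presentation differed by less than the spread. Mrc1, the mannose receptor of perivascular and meningeal macrophages, stood at 70.0, 79.7 and 31.1 CPM with MDMA and 0, 24.7 and 77.3 CPM without stress (0.77 ± 1.13, edgeR adjusted p = 0.815). H2-Ab1, an MHC class II chain, stood at 283.9, 172.3 and 203.2 CPM against 126.7, 204.1 and 287.9 CPM (0.02 ± 0.38, adjusted p = 0.989), a sign that changed with the settings. Cd74, the invariant chain, had a difference of 0.09. None of 5 tested border macrophage, 7 MHC class II, 3 dendritic cell or 6 microglia genes passed. Of 8 pan-leukocyte genes all were positive, with a median of 1.02, and none passed. None of these 8 has nearly the same exons in both annotations. Ptprc, the leukocyte antigen CD45, had a difference of 0.07 (adjusted p = 0.96). None of 6 tested B lineage genes passed either. The 11 joined B lineage members summed to 274.7, 232.8 and 216.9 CPM against 580.9, 456.1 and 458.8 CPM, without overlap. Ebf1, the early B cell factor that vessel mural cells also express, had the lowest difference of that list, -1.28 (adjusted p = 0.204).

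Glucocorticoid-responsive genes are induced by corticosterone, the stress hormone of mice. None of 14 tested members passed, and the median was 0.40. At an unadjusted p under 0.05, 5 were higher and 0 lower, beside 5.86% and 6.44% of all tested genes. Fkbp5, a chaperone that feeds back on the glucocorticoid receptor, stood at 78.0, 176.3 and 283.6 CPM with MDMA and 43.1, 35.5 and 35.9 CPM without stress (2.17 ± 0.46, edgeR adjusted p = 0.0921). The groups did not overlap, but the exons differ, 9468 own bases in Ensembl and 3884 in RefSeq, and with own length as an offset the difference was 0.88 (adjusted p = 0.298). Of 18 alternative fits Fkbp5 passed in 3: without MDMA library 1 (edgeR adjusted p = 0.0492), without a filter beyond 1 count (edgeR, 0.000731) and with DESeq2 (0.000757). The last 2 called 609 and 402 genes in all. Klf9, a zinc finger factor, stood at 644, 848 and 409 CPM against 308, 207 and 163 CPM (1.47, adjusted p = 0.196), and Sgk1, a kinase of ion transport, with similar exons, at 626, 622 and 759 CPM against 254, 259 and 456 CPM (0.98, adjusted p = 0.282). Tsc22d3, the glucocorticoid-induced leucine zipper, stood at 1127, 1172 and 1340 CPM against 737.3, 996.2 and 908 CPM (0.41 ± 0.28, adjusted p = 0.582). In all 4 genes each MDMA library exceeded each unstressed library, as in 6 of the 14 members and 11.9% of all tested genes. Nr3c1, the receptor itself, had a difference of -0.30.

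In the circadian clock list none of 14 tested genes passed, and its members went in both directions. Dbp, an output factor of the clock, stood at 127, 56.4 and 82.4 CPM with MDMA and 25.0, 16.9 and 8.74 CPM without stress (2.33, edgeR adjusted p = 0.0886). Nr1d2 and Per2, repressors within the loop, stood at 243, 336 and 328 CPM against 132, 127 and 160 CPM, and at 48.4, 40.6 and 51.7 CPM against 27.0, 13.4 and 19.9 CPM. Arntl, the activator that works opposite to them, stood at 27.1, 10.3 and 42.1 CPM against 84.9, 86.9 and 86.5 CPM (-1.80, adjusted p = 0.164). The groups did not overlap for any of these 4 genes. Of the 14 tested members, MDMA lay wholly above in 4 and wholly below in 1, beside 11.9% and 9.5% of all tested genes. The others overlapped. Of the 4 genes named here only Per2 has nearly the same exons in both annotations. No time of day is stated for the tissue collection.

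Immediate early genes, which respond within minutes to handling and dissociation, were mixed. None of 23 passed, and the median was 0.34. At an unadjusted p under 0.05, 6 were higher and 3 lower, beside 5.86% and 6.44% of all tested genes. Fos, a subunit of the AP-1 factor, stood at 1447, 1033 and 1433 CPM with MDMA against 599.7, 830.4 and 373.2 CPM (1.06, edgeR adjusted p = 0.254). Atf3, a stress-induced factor with nearly the same exons, stood at 233, 169 and 195 CPM against 63.3, 97.3 and 105 CPM (1.1, adjusted p = 0.226). Ier2, a growth-factor response gene of the same exon class, went the other way, at 367, 340 and 244 CPM against 944, 652 and 788 CPM (-1.37, adjusted p = 0.135). All 3 genes were without overlap between the groups. Of the 23, MDMA lay wholly above in 7 and wholly below in 3, beside 11.9% and 9.5% of all tested genes.

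Inflammatory genes did not pass in any of their lists at the 5 CPM level. In each of 3 other fits, 1 cytokine or inflammasome gene passed: with filterByExpr, without unstressed library 2 and with the length trend removed. With filterByExpr 1 interferon-stimulated gene passed as well. Those 3 fits called 238 of 13453, 114 of 10976 and 69 of 11389 genes. Of 14 tested cytokine and inflammasome genes 9 were positive, with a median of 0.63. Nfkbia, the inhibitor induced by NF-kappaB and a gene with nearly the same exons, had a log2 difference of 1.86 ± 0.37 (edgeR adjusted p = 0.0737). Ptgs2, the inducible cyclooxygenase, had a difference of 1.59 ± 0.42 (adjusted p = 0.172). Il1b, the pyrogenic cytokine, stood at 27.1, 22.1 and 18.0 CPM with MDMA and 3.423, 8.57 and 11.7 CPM without stress (1.44 ± 0.64, adjusted p = 0.407). Tnf stayed under the filter, at 6.91, 0.738 and 2.79 CPM against 4.79, 0.252 and 2.69 CPM. The summed list took 1342, 1102 and 1132 CPM against 671.2, 620.7 and 606.7 CPM, without overlap. Among 10 tested chemokines Cxcl1, a neutrophil attractant, had the highest difference, 2.31 (adjusted p = 0.148). Of 17 interferon-stimulated genes none passed, with a median of 0.43, and Usp18, a protease that removes ISG15, had the highest difference, 2.08 (adjusted p = 0.264).

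Few serotonin and monoamine genes, the direct targets of MDMA among them, were measurable. Of 21 genes 9 were tested and none passed, with 8 of the 9 positive and a median of 0.83. The serotonin transporter gene Slc6a4 stood at 0.288, 0.369 and 3.59 CPM with MDMA and 0.685, 2.02 and 3.36 CPM without stress, and was not tested. The receptor genes Htr2a, Htr2b and Htr7 were at most 6.19 CPM in any of the 6 libraries. Htr2c, the serotonin receptor of choroid plexus epithelium, stood at 147.1, 322.4 and 109 CPM against 196.8, 68.6 and 200.1 CPM (0.30 ± 0.56, edgeR adjusted p = 0.853), a sign that changed with the settings. Slc18a2, the vesicular monoamine transporter, stood at 38.0, 36.1 and 12.2 CPM against 111, 71.8 and 65.0 CPM (-1.54, adjusted p = 0.266). Tph1, which makes serotonin in the pineal gland, stood at 1054, 1224 and 2248 CPM against 76.0, 1438 and 11.4 CPM (1.53, adjusted p = 0.634). Unstressed library 2 lay within the MDMA range for Tph1, and the summed pineal markers were likewise 2170 CPM there against 144.8 and 47.3 CPM in unstressed libraries 1 and 3.

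The choroid plexus list, the most abundant of the cell type lists, showed no member past the threshold. None of 14 genes passed, 7 were positive, and the median was 0.08. Ttr, transthyretin, with nearly the same exons, stood at 22880, 12210 and 5400 CPM with MDMA and 5704, 4209 and 5008 CPM without stress (1.39 ± 0.49, edgeR adjusted p = 0.29), where MDMA library 3 overlapped the unstressed range. Enpp2 had a difference of -0.46 ± 0.44 (adjusted p = 0.701). Kcnj13, a potassium channel of the same epithelium, stood at 240, 216 and 117 CPM against 552, 267 and 600 CPM, and Clic6, an intracellular chloride channel protein, at 298, 213 and 337 CPM against 888, 212 and 879 CPM. The groups overlapped for Clic6 and not for Kcnj13.

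The endothelial, mural, collagen and matrix, and osteoblast lists had no member past the threshold. Outside these lists, Ccdc80 and Ets1, described above, were among the lower genes that passed. Of 12 endothelial genes none passed and 4 were positive, with a median of -0.33. Cdh5, the endothelial cadherin, with nearly the same exons, had a difference of -1.36 ± 0.32 (edgeR adjusted p = 0.13). Of 9 tested mural genes none passed, and Notch3, the receptor of smooth muscle and pericytes, had the lowest difference of the list, -1.99 ± 0.38 (adjusted p = 0.0653). The collagen and matrix list was split, with 10 of 21 positive: Col1a1, the main bone and fibroblast collagen, had 1.24 (adjusted p = 0.376) and Fbn1, fibrillin, -1.21 (adjusted p = 0.271). Spp1, osteopontin, stood at 299, 429 and 749 CPM against 23.3, 150 and 20.2 CPM (2.89, adjusted p = 0.163). The 12 osteoblast markers summed to 727.2, 926.3 and 1506 CPM against 277.3, 738.1 and 243.7 CPM, and MDMA library 1 overlapped unstressed library 2.

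Ribosomal protein genes, parts of the translation machinery, had no member past the threshold. Of 37 genes 36 had a positive difference, beside 51.3% of all tested genes, and the median was 1.05 beside 0.03. At an unadjusted p under 0.05, 18 were higher and none lower, beside 5.86% and 6.44% of all tested genes. Rplp0, with similar exons, stood at 286, 237 and 239 CPM with MDMA and 90.7, 154 and 69.2 CPM without stress (1.23, edgeR adjusted p = 0.218). Rplp1, the single gene of this list with nearly the same exons, stood at 101, 32.8 and 24.6 CPM against 15.4, 62.5 and 12.99 CPM, with overlap. With each library's trend over length removed, a step chosen after the data were seen, the list had a median of 0.82 with 35 of 37 positive. Among all 1901 tested genes with nearly the same exons the median difference was 0.32 in the shortest 634, -0.01 in the middle 633 and -0.30 in the longest 634. The 2 higher genes of that class were among the shortest and the 5 lower ones in the middle and longest sets. With that trend removed all 7 genes passed again. Rpl13a, a ribosomal protein gene outside the list, was among the lower genes with differing exons.

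Division genes were mostly positive and energy genes differed by list. Of 17 tested proliferation genes Top2a alone passed, 16 were positive and the median was 1.09. Mki67, the usual marker of cycling cells, with nearly the same exons, stood at 37.7, 10.7 and 69.2 CPM with MDMA and 54.1, 10.3 and 3.36 CPM without stress (0.70, edgeR adjusted p = 0.79), with overlap. Hmgb2, a chromatin protein of proliferating cells, stood at 43.5, 42.0 and 49.9 CPM against 14.7, 11.1 and 2.91 CPM (2.20, adjusted p = 0.194). Of 17 glycolysis and hypoxia genes none passed and 14 were positive; Slc2a1, the glucose transporter of barrier endothelium and red cells, had 1.85 (adjusted p = 0.0825). Of 27 nuclear oxidative phosphorylation genes 21 were positive, with a median of 0.50, and none passed. The 7 tested transcripts of the mitochondrial genome had a median of -0.14.

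**Figure D3:**
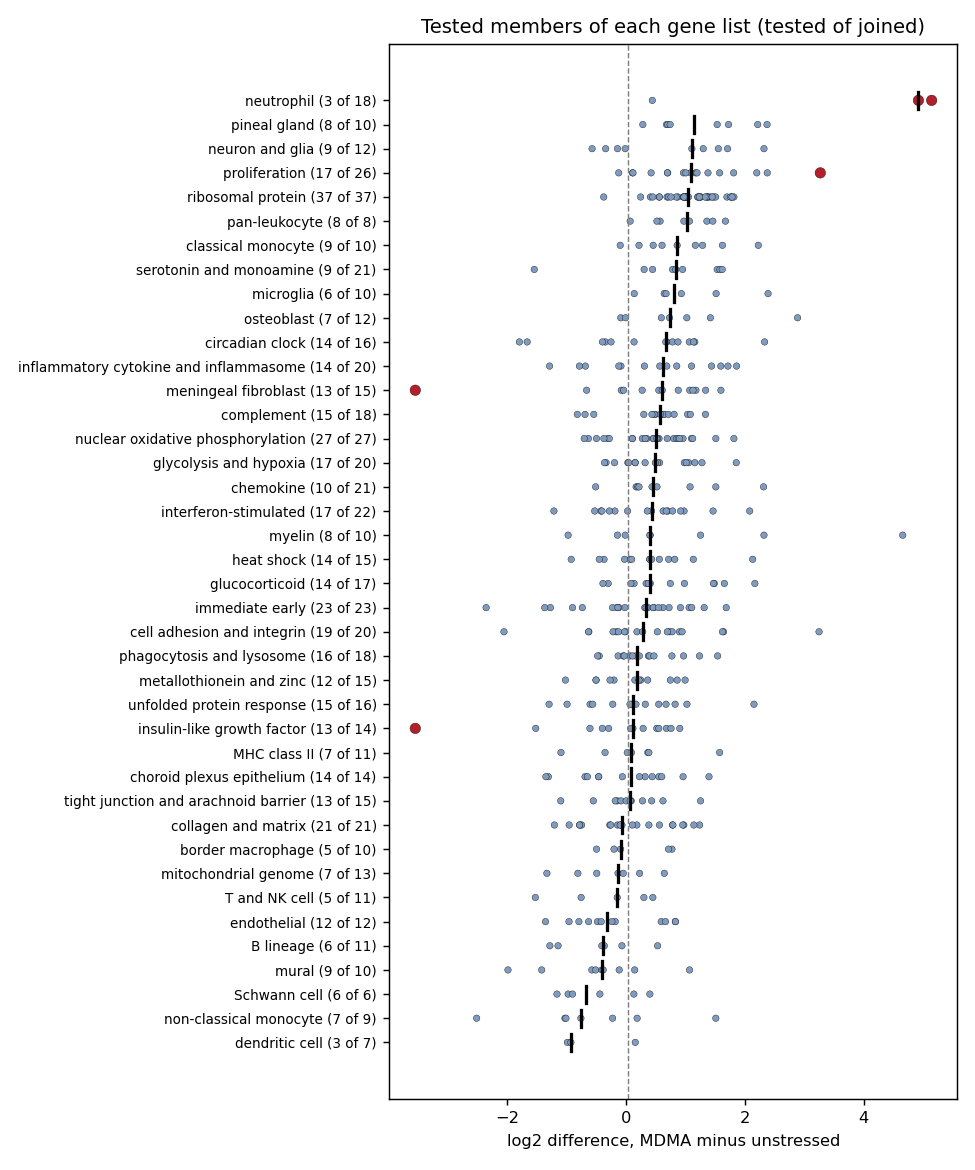
Log2 difference (MDMA minus unstressed, horizontal) of each tested list member (points), for lists with at least 3 tested members, with the tested of joined members in brackets, black bars for list medians and a dashed line for the median of all genes. Red points are members past the threshold: Ngp and Chil3 in the neutrophil list at the top, Top2a among proliferation genes, and Igf2, which stands in both the fibroblast and growth factor lists.

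Against the other stressed groups no gene passed. MDMA against psilocybin gave 0 of 11704 genes by edgeR, with 799 (6.83%) at an unadjusted p under 0.05 (4.3% higher and 2.53% lower), 12 by DESeq2 and 0 by limma voom. MDMA against vehicle gave 0 of 10343, with 132 (1.28%) at an unadjusted p under 0.05 (0.464% higher and 0.812% lower) and 0 by DESeq2 and by limma voom. The MDMA libraries lay wholly above psilocybin in 8.96% and below in 7.35% of genes, and wholly above vehicle in 7.8% and below in 2.45%. The vehicle libraries correlated less with each other (0.408 to 0.560) and held 9520 to 13461 joined genes with a count, against 15338 to 17922 in the MDMA libraries. Fkbp5 differed by 1.67 from psilocybin and by 1.52 from vehicle, Igf2 by 0.30 and 1.04, and Rgs2 by 0.09 and 0.39, none past the threshold. Top2a and Cx3cr1 were under the filter in the vehicle group and not tested against vehicle. The means of S100a8, S100a9 and Ly6c2 were above 5 CPM with vehicle and with MDMA. Their log2 differences from vehicle are not given here. Top2a had 0, 0 and 1 counts with vehicle and 197, 135 and 566 with MDMA. No test of equality was made.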

How the data were processed

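Groups and replicate numbers came from the sample titles. The deposited files hold raw read counts for each gene, which the authors had not normalized. Per the submitters' processing notes, the tools were STAR 2.7.5c, fastp 0.23.2, edgeR 3.42.4 and featureCounts 2.0.1. The build named is mm10. For unstressed samples featureCounts summed reads over RefSeq exons with no strand option, per the file headers; for stressed samples neither annotation release nor counting command is given in the labels or headers. A series table held 3 columns of no sample used here.

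Of 55401 Ensembl identifiers, GENCODE vM21 (GRCm38, that is mm10) named 55141. Genes were joined by symbol and locus (26669) or by position (909, exon Jaccard index of at least 0.5). Exons counted as nearly the same at a Jaccard index of at least 0.9 with own length within 1.1 times, and as similar at 0.8 and 1.25 times. Levels are CPM over joined genes, unscaled. Fold changes come from TMM-scaled fits of the 6 libraries compared, with edgeR 4.0.16 quasi-likelihood tests in R 4.3.3 and Benjamini-Hochberg adjustment at 0.05 over all tested genes; standard errors were derived from the test statistic. DESeq2 1.42.0 and limma 3.58.1 were alternatives. The fit was tested on simulated data. No molecular identifiers are named for the reads, and floors and bounds cover counting error only.

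Named were genes past the threshold with nearly the same exons, no overlap and no predicted symbol, up to 12 a side by size; up to 4 members of each list past the threshold; 19 genes followed whatever their p; and 3 a side of differing exons. Others named are list members with their values or are said to have been named after their values were seen. The members and lists were chosen with earlier results of these data known, so their directions are not independent evidence. Lists, 44 in all, were described by counts and medians without a test.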

Additional observations from a re-analysis of the deposited data

How the results depend on the processing

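The count of genes past the threshold for MDMA against unstressed mice, 55, moved with many choices. It was 238 with the filterByExpr filter, 609 without a filter beyond 1 count, 402 with DESeq2, 118 with limma voom, 4 with all 12 libraries fitted, and 408 with own exonic length as an offset. It was 4 among genes with nearly the same exons alone and 5 among those with the same or similar exons. Leaving out each library in turn gave 4 to 114. With own length as an offset the median over all genes was -0.30 and 90.9% of calls were lower, beside 72.7%. Replicate numbers did not pair the samples (correlations of deviations of -0.03, -0.04 and -0.01), and the replicate block gave 12, Ngp and Lbh among them. MDMA against psilocybin gave 4 without a filter and 12 with DESeq2, and MDMA against vehicle 8 without a filter; the cause was not tested.

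All 6 genes named with nearly the same exons kept their direction in every fit that tested them; none of them passed with all 12 libraries or without unstressed library 1 or 3. Directions changed, with no call in any, for H2-Ab1 (-0.020 without a filter, -0.23 to 0.37 over fits without 1 library, with -0.20 without MDMA library 1 and -0.23 without unstressed library 1, -1.09 with the length offset, -0.26 with the length trend removed), Htr2c (-0.42 without MDMA library 2, -0.02 without unstressed library 2 and up to 0.61 over such fits, -0.67 with the length offset), Ccr2 (-0.17 without MDMA library 3 and up to 0.42 over such fits, -0.55 with the length offset) and Nr4a1 (0.034 without unstressed library 1, down to -0.40 over such fits, 0.30 with the length offset). 4632427E13Rik, past the threshold, became -0.10 with the length offset. Of 416 counts of called list members over the alternatives, 37 moved by over 1.5 times, and of 550 values of named genes 97 lost their call. With filterByExpr 1 member each passed in the glucocorticoid, circadian clock, glycolysis and hypoxia, and mural lists, among others, where none passed at the 5 CPM level. That fit called 0.505% of its 13453 genes as higher and 1.26% as lower.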

Other observations

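Myelin and brain transcripts were uneven within the MDMA group. Mobp, a myelin protein of oligodendrocytes with nearly the same exons, stood at 722 CPM in MDMA library 1 and at 7.01 and 4.99 CPM in libraries 2 and 3, beside 24.0, 4.03 and 0.224 CPM in the unstressed libraries. Mbp, the myelin basic protein that Schwann cells also make, stood at 3180, 177 and 580 CPM against 281, 284 and 175 CPM. None of 8 tested myelin genes passed.

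Heat shock, unfolded protein and lysosomal genes held single members with larger differences, none of which passed the edgeR test. Hspb1, a small heat shock protein, had a log2 difference of 2.13 (adjusted p = 0.12), Hspa5, the endoplasmic reticulum chaperone, -1.30 (adjusted p = 0.15), and Asns, asparagine synthetase, 2.15 (adjusted p = 0.173). Ctss, cathepsin S of antigen-presenting cells, with nearly the same exons, had 1.54 (adjusted p = 0.231). Itgb8, an integrin that activates TGF-beta, had 3.25 (adjusted p = 0.0522), and Itgb5, with nearly the same exons, -2.06 (adjusted p = 0.181).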
